A study of Homo sapiens with 12 samples.

Results

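The 10 genes described here are CIITA, the 6 classical class II chains HLA-DRA, HLA-DRB1, HLA-DPA1, HLA-DPB1, HLA-DQA1 and HLA-DQB1, the peptide loaders HLA-DMA and HLA-DMB, and CD74. They were taken by symbol from a table of 61466 genes, and all 10 were present, each as 1 row. Expression was measured by RNA sequencing in SU-DHL-8 and Farage, both established lines of human diffuse large B cell lymphoma. Each line was given vehicle or morusinol, a prenylated flavonoid of mulberry, for 12 h, with 3 libraries in each of the 4 groups. The control libraries of both lines carry the genotype label WT, and the treated libraries have the name of the treatment in that field. The labels state neither the dose nor what the vehicle was, each line stands for 1 lymphoma, and no label says that the replicates were separate cultures. The p-values therefore measure the spread between these libraries, which may be technical. Values are FPKM, fragments scaled by gene length and library depth.

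Class II molecules present peptides taken up by a cell to CD4+ T cells, and mature B cells normally carry them at high density. Each molecule is a pair of an alpha and a beta chain (DRA with DRB1, DPA1 with DPB1, DQA1 with DQB1), held in the endoplasmic reticulum by the invariant chain CD74 and loaded with peptide by the DM heterodimer in late endosomes. CIITA is a coactivator that binds no DNA itself: it is recruited by the RFX complex, NF-Y and CREB, which sit on the X and Y boxes upstream of the class II genes, CD74 and the DM genes. Loss of class II expression is a known feature of some diffuse large B cell lymphomas.

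The lines differed in which of these genes their control libraries held. SU-DHL-8 held abundant transcripts of HLA-DRA, CD74 and HLA-DPA1, and lower levels of the other chains. Farage held CIITA, CD74 and both DM genes but had the DR and DQ chains and HLA-DPB1 at under 1 FPKM. In SU-DHL-8, morusinol was followed by more CIITA, HLA-DPB1, HLA-DQA1, CD74, HLA-DMA, HLA-DRB1 and HLA-DMB. In Farage, HLA-DMA, HLA-DMB, HLA-DPA1 and CD74 fell, and HLA-DRA rose from a very low level.

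Upstream sequences are shown for genes that were near 0 in Farage and for genes that were expressed there. Both of the short motifs described below were found in HLA-DRB1, HLA-DQA1 and HLA-DQB1, near 0 in Farage, and in HLA-DMA, expressed there. HLA-DMB, also expressed there, held both, but placed differently. HLA-DPA1, HLA-DPB1 and CD74 did not have both. The RefSeq promoter table (build GRCh38.p14, windows from 250 bases before to 50 bases after a start) held 9 windows for 8 of the 10 genes. HLA-DRA and CIITA had no entry. The X-box motif was built from these promoters: of all stretches of 12 bases of HLA-DRB1, it is the one whose best matches in the windows of HLA-DPA1, HLA-DQA1, HLA-DQB1, HLA-DMA and HLA-DMB kept the most letters in all 6 genes. It kept 7 letters, the next best stretch 5, and it reads CNAGNNACNGA (N is any base). Its presence in these 6 genes is therefore by construction. HLA-DPB1 and CD74 were not used to build it, so its absence there does not show that they lack an X box. The Y-box motif was written ATTGG and found in windows of 7 of the 8 genes. Both motifs were searched on both strands of all 35116 promoters of the table, of which 3.35% held the X motif, 34.6% the Y motif and 1.08% both. HLA-DPB1 had the Y motif at 2 places without the X motif, and CD74 had 1 Y motif. In HLA-DRB1, HLA-DQA1, HLA-DQB1 and HLA-DMA the Y motif nearest the X motif lay on the same strand as it. In HLA-DMB the only Y motif lay on the other strand and farther from the X motif. HLA-DMB is therefore not shown to have the same pair. Each stretch below runs 5′ to 3′ on the strand of its gene, starts 10 bases before the X motif and is 90 bases long. Capitals mark the X motif and any Y motif, written ATTGG or, on the other strand, CCAAT. The 3 genes of chains that were near 0 in Farage are first (HLA-DRB1, minus strand, chr6:32589850-32589939; HLA-DQA1, plus strand, chr6:32637292-32637381; HLA-DQB1, minus strand, chr6:32666701-32666790).
HLA-DRB1: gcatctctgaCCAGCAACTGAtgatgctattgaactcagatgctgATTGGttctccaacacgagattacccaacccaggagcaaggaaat
HLA-DQA1: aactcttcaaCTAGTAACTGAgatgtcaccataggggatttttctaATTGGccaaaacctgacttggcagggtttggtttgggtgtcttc
HLA-DQB1: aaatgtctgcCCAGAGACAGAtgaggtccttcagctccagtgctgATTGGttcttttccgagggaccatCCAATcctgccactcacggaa

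HLA-DPA1, which kept a low level in Farage, had the X motif in 1 of its 2 windows and no Y motif. Its stretch (minus strand, chr6:33073671-33073760) is followed by those of the DM genes, which were higher in Farage than in SU-DHL-8 (HLA-DMA, minus strand, chr6:32953133-32953222; HLA-DMB, minus strand, chr6:32941039-32941128).
HLA-DPA1: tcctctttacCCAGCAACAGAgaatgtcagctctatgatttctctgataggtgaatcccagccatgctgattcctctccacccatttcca
HLA-DMA: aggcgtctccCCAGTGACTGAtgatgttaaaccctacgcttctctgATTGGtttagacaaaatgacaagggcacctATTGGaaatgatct
HLA-DMB: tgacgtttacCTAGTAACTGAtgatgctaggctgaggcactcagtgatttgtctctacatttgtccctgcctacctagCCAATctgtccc

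These are sequences of the reference and not of the cell lines. A match shows the letters only, and binding was not measured.

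Libraries held an estimated 6.05 to 15.2 M (mega) fragments for SU-DHL-8 and, for Farage, 9.37 to 19.0 M, with the lowest depth in replicate 2 of SU-DHL-8 morusinol. The B cell label was borne out by the markers, since all 6 B lymphocyte markers, among them MS4A1, CD79A, CD79B, CD22 and PAX5, had a mean above 1 FPKM in all 4 groups. Their summed level was 354 to 368 FPKM in SU-DHL-8 control, 230 to 238 in SU-DHL-8 morusinol, 966 to 1021 in Farage control and 613 to 660 in Farage morusinol. The 14 markers of myeloid and dendritic cells, the other professional class II carriers, summed to 2.12 FPKM at most in any library. Of 12 markers of T and NK cells, TRAC stood at 70 ± 4.94 FPKM (SD, n = 3) in Farage control, and 10 had means under 1 FPKM in that group. The 12 fibroblast, endothelial and epithelial markers summed to 3.01 FPKM at most.

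Across 17574 genes tested with limma on log2(FPKM + 1), 64.1% differed between the control libraries of the lines at an adjusted p under 0.05, 29.6% lower and 34.5% higher in Farage. Of the 10 genes, 7 were lower and 3 higher in Farage, with a median log2 difference of -1.39 against 0.08 over all genes tested. The median of the 10 was -2.25 after rescaling to TPM and -3.75 at a pseudocount of 0.1. All 10 passed the filter (at least 1 FPKM in at least 3 libraries) within SU-DHL-8, but 5 did so only there, namely HLA-DRA, HLA-DRB1, HLA-DPB1, HLA-DQA1 and HLA-DQB1. Those 5 had to differ between the lines to be tested, so their count and the median of the 10 say little. Of the genes that also passed within Farage, CIITA and both DM genes were higher there, and HLA-DPA1 and CD74 were lower. In bulk RNA, fewer cells that express a gene and less RNA per cell cannot be told apart.

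HLA-DRA encodes the alpha chain shared by all DR molecules, lies on the plus strand at chr6:32439842-32445046 (build GRCh38, GENCODE 29) and varies little between people. It stood at 964, 976 and 892 FPKM in control libraries of SU-DHL-8, and those of Farage had 0.212, 0.216 and 0.194 FPKM. The libraries of the lines did not overlap, as for 69.5% of all genes tested, and HLA-DRA was gene 28 of 61466 by mean level in SU-DHL-8 and gene 22979 in Farage. The ratio of the means was 4553, from an estimated 4.12 to 5.15 fragments per library in Farage against 16880 to 18800 in SU-DHL-8. On the log2(FPKM + 1) scale Farage was lower by -9.61 ± 0.0818 (SE, limma adjusted p = 4.8e-14).

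HLA-DRB1, the main DR beta chain (minus strand, chr6:32578769-32589848), was at 37.2, 36.5 and 36.3 FPKM in SU-DHL-8 control, against 0.154, 0.140 and 0.117 in Farage control. The 2 groups did not overlap, with a log2 difference of -5.05 ± 0.0540 (limma adjusted p = 2.0e-13). The ratio of HLA-DRA to HLA-DRB1 was 25.7 ± 1.09 in SU-DHL-8 control (ratio of FPKM, SD, n = 3), and both genes were near the floor in Farage. HLA-DRB1 is not the only DR beta gene. HLA-DRB5 was at 4.23 ± 0.153 FPKM in SU-DHL-8 control, and HLA-DRB3 and HLA-DRB4 were not in the table.

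The DP pair lies head to head and overlaps at its starts. HLA-DPA1 (minus strand, chr6:33064569-33080775) was at 89.3, 86.3 and 84.5 FPKM in SU-DHL-8 control, against 5.83, 5.57 and 5.41 in Farage control. It was the best kept of the 6 classical chains in Farage, at 15.5-fold less than in SU-DHL-8 (log2 difference -3.73 ± 0.0791, limma adjusted p = 2.5e-11). HLA-DPB1 (plus strand, chr6:33075926-33087201) was at 21.9, 23.1 and 22.4 FPKM in SU-DHL-8 control against 0.556, 0.804 and 0.572 in Farage control, a log2 difference of -3.84 ± 0.0563 (limma adjusted p = 1.5e-12). Both chains were thus lower in every Farage library than in any of SU-DHL-8. Their annotated exons share 96 bases on opposite strands, and no source used here gives the strand of counting, so fragments in that overlap cannot be assigned.

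The DQ chains were low in both lines. HLA-DQA1 (plus strand, chr6:32628179-32647062) was at 1.85, 1.89 and 1.71 FPKM in SU-DHL-8 control, against 0.00383, 0.00782 and 0.0307 in Farage control. HLA-DQB1 (minus strand, chr6:32659467-32668383) was at 1.33, 1.31 and 1.40 FPKM in SU-DHL-8 control, while Farage control had 1 library at 0 and the others at 0.0275 and 0.0431. These Farage values rest on at most 3.52 estimated fragments per library for HLA-DQA1 and 3.51 for HLA-DQB1, so no fold is given. On the log2 scale the differences were -1.47 ± 0.0866 for HLA-DQA1 (limma adjusted p = 7.7e-08) and -1.20 ± 0.0912 for HLA-DQB1 (limma adjusted p = 6.6e-07).

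The 6 classical chains together summed to 1093 ± 47.6 FPKM in SU-DHL-8 control, against 6.63 ± 0.225 in Farage control (SD, n = 3). HLA-DRA made up 86.4% of that sum in SU-DHL-8 and 3.13% in Farage, where HLA-DPA1 was the leading chain. The classical genes are highly polymorphic and have close copies (HLA-DRB1 with HLA-DRB5 and HLA-DRB6, HLA-DQA1 with HLA-DQA2, HLA-DQB1 with HLA-DQB2). No source used here says how reads of alleles unlike the reference were counted, and the part of this in the line difference was not tested. The values of HLA-DRB1, HLA-DQA1 and HLA-DQB1 are uncertain in that respect.

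CD74, the invariant chain (minus strand, chr5:150401637-150412929), was abundant in both lines and lower in Farage. It was at 305, 283 and 326 FPKM in SU-DHL-8 control, against 135, 116 and 116 in Farage control, gene 125 and gene 274 of the table. The groups did not overlap, and the Farage mean was 2.49-fold lower (log2 difference -1.31 ± 0.0749, limma adjusted p = 6.4e-08). Set against the sum of the 6 classical chains, CD74 was 0.280 ± 0.0316 in SU-DHL-8 control and 18.5 ± 1.43 in Farage control (ratio of FPKM, SD, n = 3).

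The DM genes ran the other way. HLA-DMA (minus strand, chr6:32948613-32969094) was at 17.9, 17.2 and 17.4 FPKM in SU-DHL-8 control, against 36.2, 34.5 and 37.3 in Farage control, higher by 1.0 ± 0.0516 on the log2 scale (limma adjusted p = 2.8e-08). HLA-DMB (minus strand, chr6:32934629-32941070) was at 5.53, 4.72 and 5.49 FPKM in SU-DHL-8 control, against 19.8, 19.7 and 20.5 in Farage control, higher by 1.75 ± 0.0583 (limma adjusted p = 8.0e-10). Every Farage control library was thus above every SU-DHL-8 control library for both subunits. The ratio of HLA-DMA to HLA-DMB was 3.35 ± 0.255 in SU-DHL-8 and 1.80 ± 0.0446 in Farage (SD, n = 3).

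CIITA, the coactivator (plus strand, chr16:10866222-10943021), was higher in Farage. Its level was 6.68, 6.60 and 7.19 FPKM in SU-DHL-8 control, against 9.71, 9.75 and 8.12 in Farage control, with no overlap and a log2 difference of 0.38 ± 0.0643 (limma adjusted p = 0.000368). The line with almost no DR and DQ transcripts therefore had the higher CIITA value. Its annotated exons span 20757 bases when all isoforms are joined, which lowers a value per length against short genes, and 2416 of those bases lie opposite DEXI. DEXI was at 3.10 FPKM in SU-DHL-8 control, against 1.80 in Farage control.

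**Figure D1:**
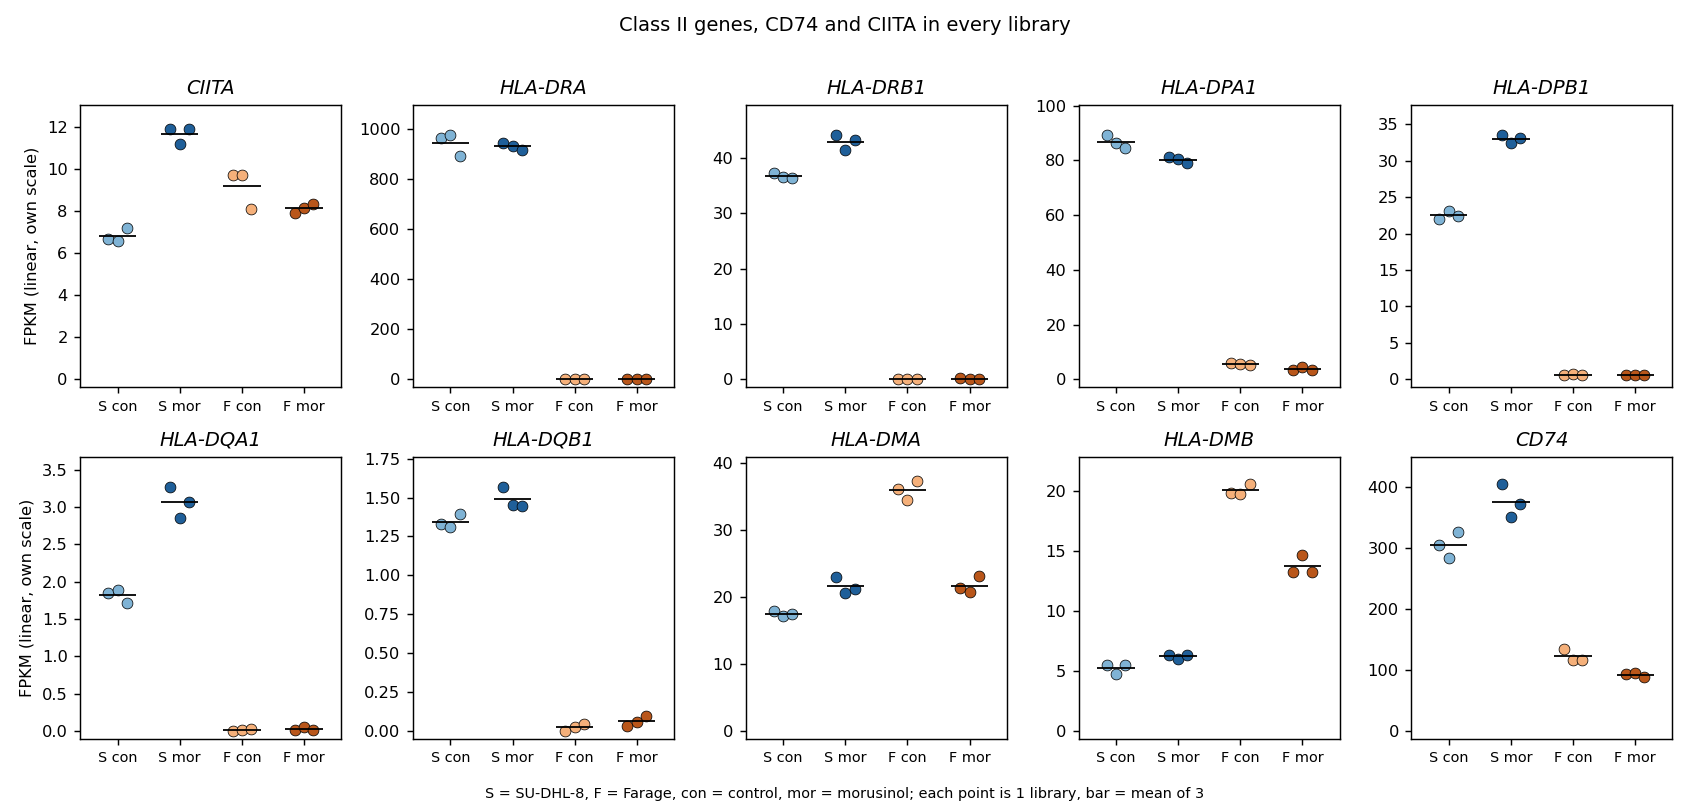
FPKM of the 10 genes on linear axes, each panel with its own scale. Each point is 1 library, the bar is the mean of 3, S is SU-DHL-8, F is Farage, con is control and mor is morusinol. HLA-DRA is at 892 to 976 FPKM in SU-DHL-8 control, against 0.194 to 0.216 in Farage control, while CIITA, CD74 and the DM genes are present in all 4 groups.

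The order of levels was HLA-DRA, CD74, HLA-DPA1, HLA-DRB1, HLA-DPB1, HLA-DMA, CIITA, HLA-DMB, HLA-DQA1, HLA-DQB1 in both SU-DHL-8 groups, and no neighbours in it overlapped. In Farage control the order was CD74, HLA-DMA, HLA-DMB, CIITA, HLA-DPA1, HLA-DPB1, HLA-DRA, HLA-DRB1, HLA-DQB1, HLA-DQA1, and only the last pair overlapped. With morusinol HLA-DRA moved above HLA-DPB1 in Farage, and HLA-DRB1 and HLA-DQB1 came to overlap as well.

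The genes that differed were not a continuous block of chromosome 6. Among 30 protein-coding genes from PBX2 to RING1, a window chosen after the values were seen, 16 were lower in Farage control, 6 were higher, 4 were not called and 4 were not tested. Over all genes tested, 29.6% were lower and 34.5% higher, and several of the 16 passed the filter only through SU-DHL-8. The run from HLA-DRA to HLA-DQB2 was low in Farage throughout. Just before it, TSBP1 (1.59 FPKM in SU-DHL-8 against 0.186 in Farage) and BTNL2 (0.709 against 0.136) were lower too. Their log2 differences were -1.12 ± 0.141 and -0.59 ± 0.154 (limma adjusted p = 3.9e-05 and 0.00612). HLA-DOB, TAP2, PSMB8, PSMB9, TAP1, HLA-DMB, HLA-DMA and BRD2 followed it and were all expressed there, for example TAP1 at 22.6 ± 1.54 FPKM against 15.7 ± 0.413 in SU-DHL-8 and PSMB8 at 20.4 ± 0.927 against 23.3 ± 1.16 (SD, n = 3). HLA-DOA, HLA-DPA1 and HLA-DPB1, farther along, were low again. Past the DP genes, HSD17B8 was lower in Farage (log2 difference -0.68 ± 0.127, limma adjusted p = 0.000707), and its neighbours RXRB, SLC39A7 and RING1 were not called (limma adjusted p from 0.0866 to 0.667).

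**Figure D2:**
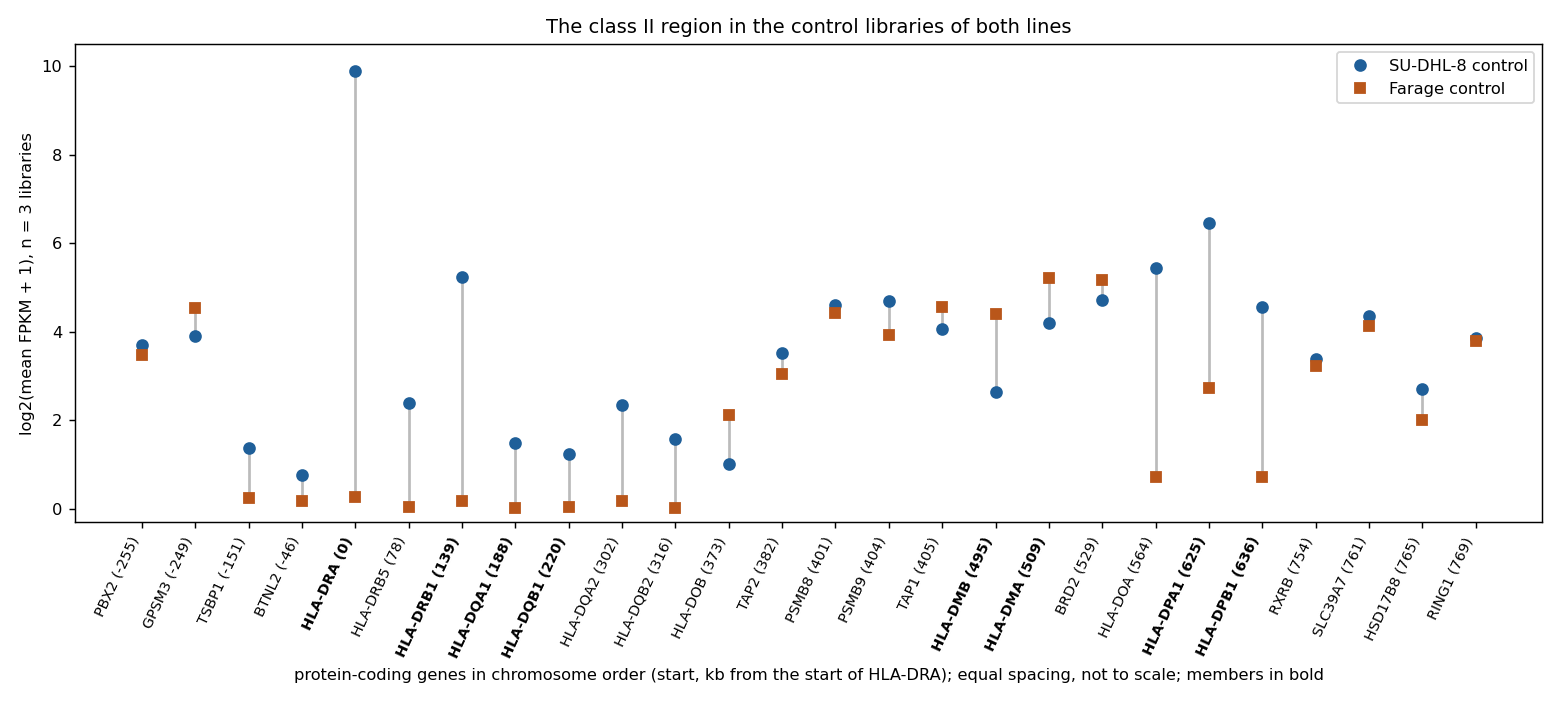
Mean level of the 26 tested protein-coding genes of the class II region in the control libraries, as log2(mean FPKM + 1), in chromosome order with equal spacing. Labels give each gene's start in kb from the start of HLA-DRA, circles are SU-DHL-8, squares are Farage, and the 8 genes of the set that lie here are in bold. Farage values are low from TSBP1 to HLA-DQB2 and at HLA-DOA, HLA-DPA1 and HLA-DPB1. Between them lies the stretch from HLA-DOB to BRD2, where the lowest log2 difference of Farage from SU-DHL-8 is -0.77 (PSMB9).

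In SU-DHL-8, 46.8% of the genes tested changed with morusinol, 25.1% higher and 21.6% lower. That balance turned with the scaling, from 4414 genes higher and 3802 lower to 3438 and 4301 after rescaling to TPM and 3700 and 4389 with the median of ratios. Of the 10 genes, 7 rose, none fell and 3 were not called, and their median log2 change was 0.25 against 0.02 over all genes tested. The number that rose was 5 when libraries were scaled by the median of ratios and 3 when values were rescaled to TPM (CIITA, HLA-DPB1 and HLA-DQA1). The direction of the 7 held under both scalings. B lymphocyte markers moved as well, from a summed 354 to 368 FPKM down to 230 to 238, with 4 of 6 lower and 2 of 6 higher (CD79B and PAX5, calls lost under both scalings), and their part in these changes was not tested.

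CIITA rose the most on the log2 scale. It went from 6.68, 6.60 and 7.19 FPKM in control to 11.9, 11.2 and 11.9 with morusinol. The 2 groups did not overlap, as for 54.1% of all genes tested, and differed 1.71-fold (log2 change 0.70 ± 0.0643, 95% interval 0.55 to 0.84, limma adjusted p = 7.2e-06). DEXI, which overlaps it on the other strand, was at 3.10 FPKM in control and 3.93 with morusinol.

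The beta chain of DP and the alpha chain of DQ followed in size. HLA-DPB1 went from 21.9, 23.1 and 22.4 FPKM to 33.5, 32.4 and 33.1 (log2 change 0.53 ± 0.0563, limma adjusted p = 2.0e-05). HLA-DQA1 went from 1.85, 1.89 and 1.71 FPKM to 3.27, 2.86 and 3.07 (log2 change 0.53 ± 0.0866, limma adjusted p = 0.000478). Neither gene had an overlap between its groups.

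HLA-DRB1 rose from 37.2, 36.5 and 36.3 FPKM to 44.0, 41.4 and 43.2 (log2 change 0.22 ± 0.0540, limma adjusted p = 0.00659), a call lost at a pseudocount of 0.1 and under both scalings. The partners of these chains were not called. HLA-DRA was at 964, 976 and 892 FPKM in control and 946, 933 and 918 with morusinol, groups that overlapped (log2 change -0.02 ± 0.0818, 95% interval -0.20 to 0.16, limma adjusted p = 0.919). HLA-DPA1 was at 89.3, 86.3 and 84.5 FPKM in control and 81.4, 80.3 and 79.0 with morusinol. It was lower in every treated library but not called (log2 change -0.11 ± 0.0791, limma adjusted p = 0.302), except when SU-DHL-8 was fitted alone (adjusted p = 0.0308). HLA-DQB1 was at 1.33, 1.31 and 1.40 FPKM in control and 1.57, 1.45 and 1.45 with morusinol, higher in every treated library but not called (log2 change 0.09 ± 0.0912, limma adjusted p = 0.501).

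Ratios of FPKM within the pairs are given as counted. How reads of HLA alleles unlike the reference were counted is not known, so these ratios do not give the balance of the chains. The ratio of HLA-DPA1 to HLA-DPB1 was 3.86 ± 0.184 in control and 2.43 ± 0.0451 with morusinol, and that of HLA-DRA to HLA-DRB1 was 25.7 ± 1.09 and 21.8 ± 0.685 (SD, n = 3). Because HLA-DRA dominates, the sum of the 6 classical chains was 1093 ± 47.6 FPKM in control and 1093 ± 16.0 with morusinol. The ratio of HLA-DRA to CIITA was 139 ± 12.9 in control and 79.9 ± 3.14 with morusinol. These ratios were not tested.

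The accessory genes rose modestly in SU-DHL-8. CD74 went from 305, 283 and 326 FPKM to 405, 352 and 373 (log2 change 0.30 ± 0.0749, limma adjusted p = 0.00641). HLA-DMA went from 17.9, 17.2 and 17.4 FPKM to 23.0, 20.6 and 21.3 (log2 change 0.29 ± 0.0516, limma adjusted p = 0.000879). HLA-DMB went from 5.53, 4.72 and 5.49 FPKM to 6.34, 6.0 and 6.33 (log2 change 0.21 ± 0.0583, limma adjusted p = 0.0121). All treated libraries were above all control libraries for these 3 genes. Rescaled to TPM, none of the 3 was called, at limma adjusted p = 0.0862 for CD74, 0.0654 for HLA-DMA and 0.0805 for HLA-DMB.

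In Farage, 43.1% of the genes tested changed with morusinol, 21.9% higher and 21.2% lower. Of the 10 genes, 4 fell, 1 rose and 5 were not called, with a median log2 change of -0.11 against -0.03 over all genes tested. The genes that fell were those this line expressed besides CIITA. B lymphocyte markers also fell here, with 5 of 6 lower, from a summed 966 to 1021 FPKM to 613 to 660, and their part in these changes was not tested.

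HLA-DMA fell the most. It went from 36.2, 34.5 and 37.3 FPKM in control to 21.4, 20.7 and 23.1 with morusinol. The groups did not overlap, as for 51% of all genes tested, and the treated mean was 1.66-fold lower (log2 change -0.70 ± 0.0516, limma adjusted p = 1.9e-06). HLA-DMB went from 19.8, 19.7 and 20.5 FPKM to 13.2, 14.6 and 13.2 (log2 change -0.52 ± 0.0583, limma adjusted p = 4.3e-05). Both subunits of the peptide loader thus fell, and after treatment HLA-DMA stood at 21.7 ± 1.23 FPKM in Farage and 21.6 ± 1.20 in SU-DHL-8 (SD, n = 3).

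CD74 went from 135, 116 and 116 FPKM to 94.2, 94.6 and 88.8 (log2 change -0.40 ± 0.0749, limma adjusted p = 0.00153). HLA-DPA1, the leading classical chain of this line, went from 5.83, 5.57 and 5.41 FPKM to 3.61, 4.67 and 3.39 (log2 change -0.44 ± 0.0791, limma adjusted p = 0.00108). Treated and control libraries did not overlap for either gene. The HLA-DPA1 values rest on an estimated 516 to 635 fragments per control library and 209 to 263 per treated library.

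CIITA itself was at 9.71, 9.75 and 8.12 FPKM in the Farage controls, then 7.90, 8.14 and 8.36 with morusinol. The third control library lay among the treated ones, and CIITA was not called (log2 change -0.15 ± 0.0643, 95% interval -0.30 to -0.01, limma adjusted p = 0.0778). Without control replicate 3 it was called lower, at -0.23 ± 0.0486 (limma adjusted p = 0.00443), so this result rests on that library.

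HLA-DRA was the gene of the set that rose in Farage. It went from 0.212, 0.216 and 0.194 FPKM in control to 0.667, 1.20 and 0.976 with morusinol, 4.57-fold higher and without overlap (log2 change 0.68 ± 0.0818, limma adjusted p = 6.9e-05). The values correspond to an estimated 4.12 to 5.15 fragments per control library and 10.8 to 14.4 per treated library, 14.4 against 38.6 in all. The treated level, 0.948 ± 0.268 FPKM (SD, n = 3), was still far under the 944 ± 45.5 FPKM of SU-DHL-8 control.

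The remaining chains stayed near the floor in Farage. HLA-DRB1 was at 0.154, 0.140 and 0.117 FPKM in control and 0.192, 0.0346 and 0.151 with morusinol, with overlapping groups (log2 change -0.02 ± 0.0540, limma adjusted p = 0.848). HLA-DPB1 was at 0.556, 0.804 and 0.572 FPKM in control and 0.590, 0.572 and 0.572 with morusinol (log2 change -0.06 ± 0.0563, limma adjusted p = 0.477). HLA-DQA1 and HLA-DQB1 stayed under 0.1 FPKM in all 6 Farage libraries, at limma adjusted p = 0.908 and 0.702. HLA-DRB1, HLA-DQA1 and HLA-DQB1 had at most 5.01 estimated fragments in any Farage library, and HLA-DPB1 had 15 to 41.7, so these values are imprecise and small changes could be missed.

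**Figure D3:**
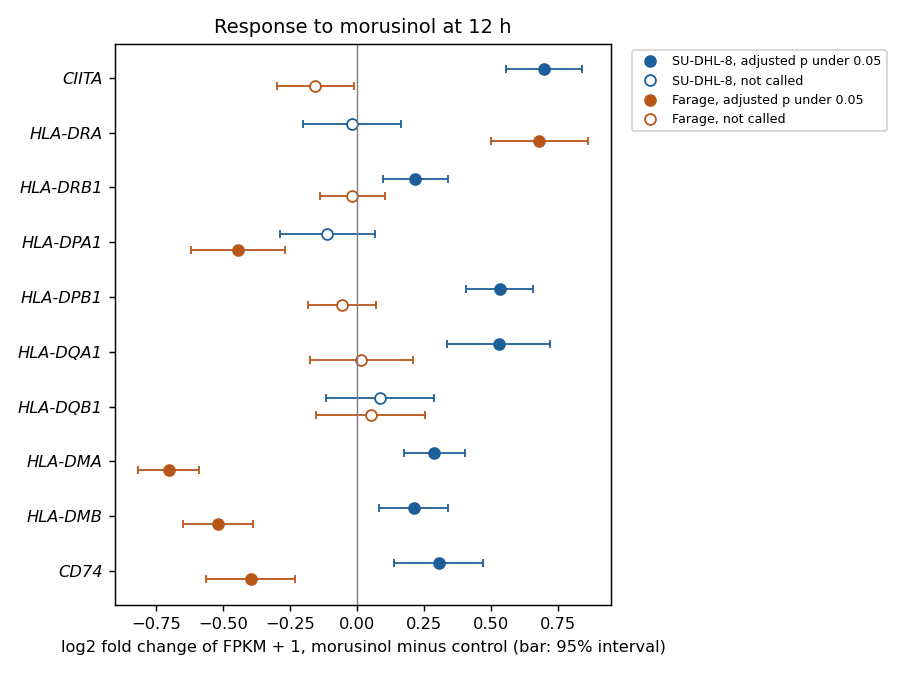
Log2 fold change of FPKM + 1, morusinol minus control, for the 10 genes in SU-DHL-8 (blue) and Farage (orange). Points are limma estimates from 3 libraries a group, bars are 95% intervals, filled points have an adjusted p under 0.05 and open points do not. CIITA, the DM genes and CD74 lie right of 0 in SU-DHL-8 and left of 0 in Farage (CIITA without a call there), and HLA-DRA lies at -0.02 in SU-DHL-8 and 0.68 in Farage.

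The responses of the lines were compared directly by the interaction term, Farage response minus SU-DHL-8 response. Of all genes tested, 34.9% differed, 17.6% lower and 17.3% higher, and calls that were higher made up 49.6% of them (62.5% after rescaling to TPM, 60.5% with the median of ratios). Of the 10 genes, 8 were lower, 1 higher and 1 not called, with a median difference of -0.55 against -0.07 over all genes. The number lower was 5 after rescaling to TPM. The differences were -0.99 ± 0.0730 for HLA-DMA (limma adjusted p = 4.7e-06), -0.85 ± 0.0909 for CIITA (5.7e-05), -0.73 ± 0.0824 for HLA-DMB (8.6e-05) and -0.70 ± 0.106 for CD74 (0.000578). Those 4 genes passed the filter within each line, and the cause of their difference was not tested. HLA-DPB1 and HLA-DQA1 differed by -0.59 ± 0.0796 and -0.51 ± 0.123, but a gene near 0 in Farage can show little change there on this scale, and the HLA-DQA1 call was lost after rescaling to TPM and at a pseudocount of 0.1. HLA-DRA differed by 0.70 ± 0.116 (limma adjusted p = 0.00105). HLA-DPA1 (-0.33 ± 0.112, adjusted p = 0.0418) and HLA-DRB1 (-0.23 ± 0.0763, adjusted p = 0.0361) were lost under both scalings and when most of the single libraries were left out. HLA-DRB1 was also near 0 in Farage, with the same limit as HLA-DPB1 and HLA-DQA1.

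The other class II loci were described from a list of 10 genes, of which 8 were in the table and 6 were tested. In SU-DHL-8, 3 rose and none fell, and in Farage 1 rose and none fell, against 25.1% and 21.9% of all genes tested that rose. Between the controls 5 were lower and 1 higher in Farage, where 29.6% and 34.5% of all genes tested were. The 5 lower loci passed the filter only through SU-DHL-8, so that count was fixed by the filter. HLA-DOA, a subunit of the DO dimer that restrains DM in B cells, went from 41.7, 44.2 and 41.1 FPKM to 85.8, 81.1 and 85.2 in SU-DHL-8 (log2 change 0.97 ± 0.101, limma adjusted p = 1.8e-05). In Farage it went from 0.701, 0.681 and 0.529 FPKM to 1.66, 1.31 and 0.901 (log2 change 0.47 ± 0.101, limma adjusted p = 0.00329). HLA-DOA thus followed the classical genes between the lines, at -4.73 ± 0.101, and its partner HLA-DOB did not, at 1.12 ± 0.164 (both limma, adjusted p = 2.7e-11 and 0.000121). The ratio of HLA-DOA to HLA-DMA was 2.42 ± 0.131 in SU-DHL-8 control, 3.89 ± 0.140 with morusinol, 0.0178 ± 0.00312 in Farage control and 0.0601 ± 0.0196 with morusinol (SD, n = 3). HLA-DQA2 rose in SU-DHL-8 by 0.89 ± 0.149, a call lost at a pseudocount of 0.1, and HLA-DOB by 0.46 ± 0.164, a call lost under both scalings. HLA-DRB5 was at 4.23 ± 0.153 FPKM in SU-DHL-8 control, against 0.0357 ± 0.0449 in Farage control.

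Of the 10 factors that act at class II promoters, 4 were lower and 6 higher in Farage control, against 29.6% and 34.5% of all genes tested. RFX5, the DNA-binding subunit of the RFX complex, was at 54.1 ± 1.38 FPKM in SU-DHL-8 control, against 16.4 ± 1.0 in Farage control (log2 difference -1.67 ± 0.0483, limma adjusted p = 2.7e-10). NFYA, a subunit of NF-Y, was at 48.3 ± 1.04 and 8.86 ± 0.218 FPKM (log2 difference -2.32 ± 0.0557, limma adjusted p = 6.3e-11). Both factors were thus lower in Farage, where the classical chains were low and the DM genes higher, and both were still expressed there. Any link to the class II levels was not tested. RFXAP was lower by -0.81 ± 0.136 and RFXANK higher by 0.26 ± 0.0728.

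With morusinol, 4 of these factors rose and 2 fell in SU-DHL-8 (median 0.09), and 5 rose and none fell in Farage (median 0.23). Over all genes tested, 25.1% rose and 21.6% fell in SU-DHL-8, and 21.9% and 21.2% in Farage. RFX5 rose in SU-DHL-8 together with CIITA, to 84.4 ± 2.84 FPKM (log2 change 0.63 ± 0.0483, limma adjusted p = 1.8e-06). In Farage it was at 15.5 ± 0.588 FPKM after treatment (log2 change -0.08 ± 0.0483, limma adjusted p = 0.248), and the responses differed by -0.71 ± 0.0683 (adjusted p = 3.1e-05). RFXANK rose in both lines, by 0.37 ± 0.0728 and 0.33 ± 0.0728, and so did the acetyltransferase CREBBP, by 0.46 ± 0.0834 and 0.58 ± 0.0834.

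**Figure D4:**
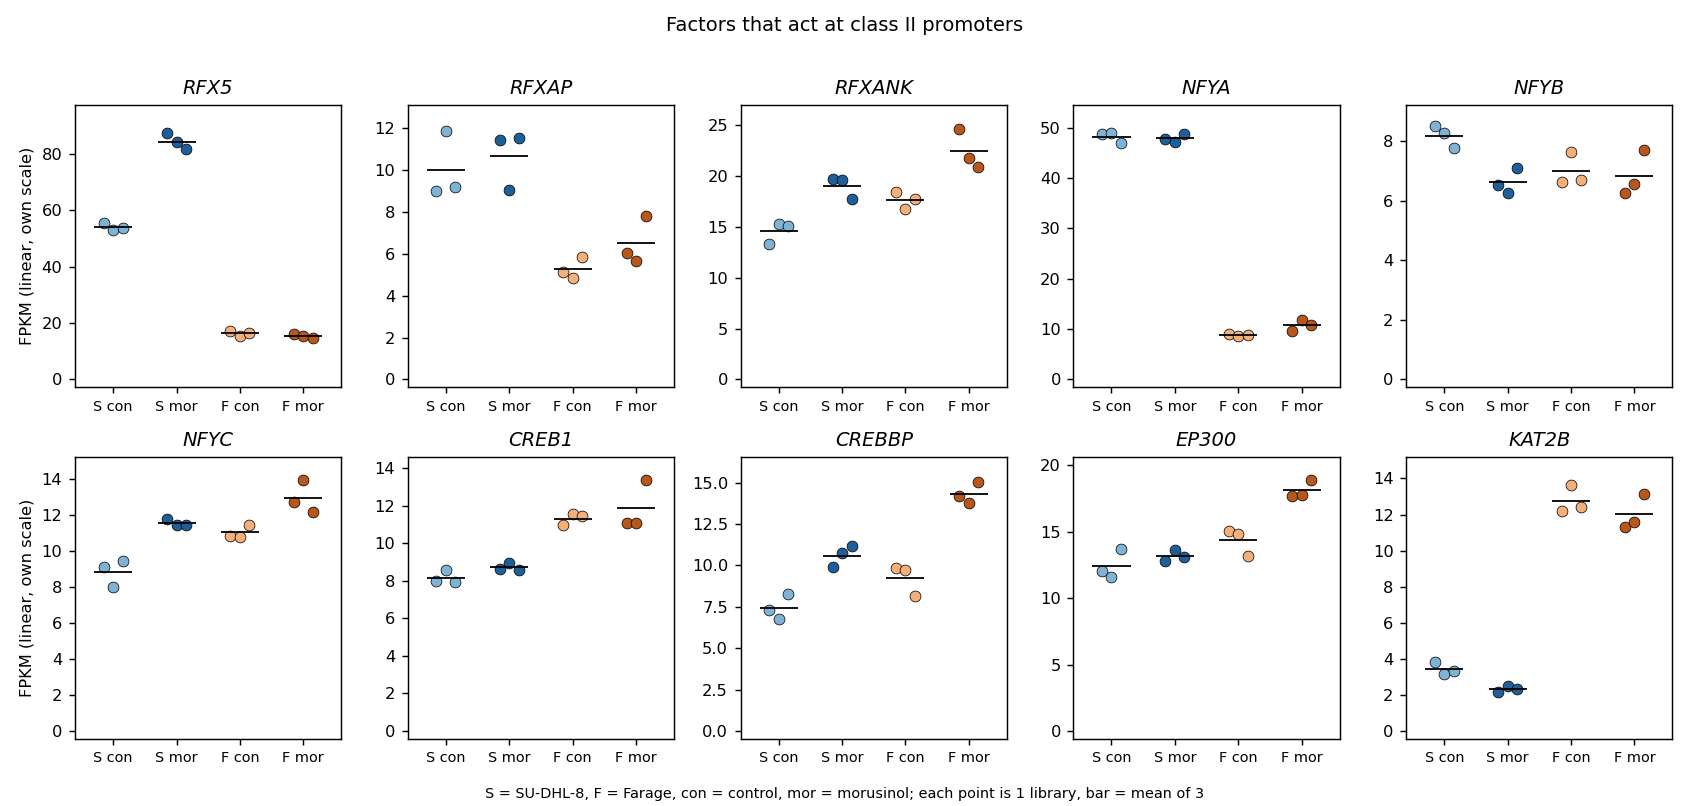
FPKM of the 10 promoter factors on linear axes, each panel with its own scale, with points for single libraries and a bar for the mean of 3 (S is SU-DHL-8, F is Farage, con is control, mor is morusinol). RFX5 means are 54.1 and 84.4 FPKM in SU-DHL-8 against 16.4 and 15.5 in Farage, and NFYA is at 48.3 in SU-DHL-8 control against 8.86 in Farage control.

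Of 13 genes known to act on CIITA transcription, 4 rose and 6 fell in SU-DHL-8, and 3 rose and 7 fell in Farage. Over all genes tested, 25.1% rose and 21.6% fell in SU-DHL-8, and 21.9% and 21.2% in Farage. Between the controls 9 of the 13 were higher and 3 lower in Farage, against 34.5% and 29.6% of all genes tested. IRF8, ZBTB32 and BCL6 passed the filter only through Farage. IRF8, an activator of the B cell promoter of CIITA, was at 0.00578 ± 0.00501 FPKM in SU-DHL-8 control, against 119.6 ± 4.37 in Farage control. It fell in Farage to 89.8 ± 2.26 FPKM (log2 change -0.41 ± 0.0370, limma adjusted p = 8.4e-06). SU-DHL-8 thus expressed CIITA with IRF8 near 0. PAX5, another activator, stood at 46.9 ± 2.35 FPKM before treatment in Farage and fell to 29.9 ± 0.811 (log2 change -0.63 ± 0.0617), and its rise of 0.18 ± 0.0617 in SU-DHL-8 was lost under both scalings. IRF4, a factor of activated B cells and plasma cells, rose in both lines, by 1.79 ± 0.0395 in SU-DHL-8 and 1.0 ± 0.0395 in Farage, and IRF1 rose in Farage by 0.28 ± 0.0544. PRDM1, which represses CIITA as B cells become plasma cells, rose together with CIITA in SU-DHL-8 (0.94 ± 0.0903) and fell in Farage (-0.43 ± 0.0903).

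Genes that prepare peptides or move class II molecules showed no common direction with morusinol. Of 14 listed, 13 were tested, with 5 higher and 4 lower in SU-DHL-8 and 6 higher and 4 lower in Farage. Of all genes tested, 25.1% rose and 21.6% fell in SU-DHL-8, and 21.9% and 21.2% in Farage. Between the controls 9 were higher and 2 lower in Farage, against 34.5% and 29.6% of all genes tested. CTSH, IFI30 and LGMN passed the filter only through Farage. CTSS, the protease that trims CD74 in B cells, was not called in either line, at 15.9 and 15 FPKM in SU-DHL-8 and 23.8 and 25.9 in Farage. CTSH fell in Farage from 49.3 ± 1.37 to 17.3 ± 1.28 FPKM (log2 change -1.46 ± 0.0601) and IFI30, the lysosomal thiol reductase, from 9.84 ± 0.597 to 6.36 ± 0.382 (-0.56 ± 0.0987, a call lost at a pseudocount of 0.1). LGMN, an endosomal protease, rose there from 5.96 ± 0.465 to 13.4 ± 1.22 FPKM (1.05 ± 0.0788). SPPL2A, which cleaves the last fragment of CD74 from the membrane, rose by 0.77 ± 0.0874 in SU-DHL-8 and 0.75 ± 0.0874 in Farage. MARCHF8, a ubiquitin ligase of the family that removes class II molecules from the surface, rose by 0.72 ± 0.0586 and 0.59 ± 0.0586. MARCHF1 of the same family went from 1.37 ± 0.0679 to 1.65 ± 0.330 FPKM in SU-DHL-8 (SD, n = 3). In Farage MARCHF1 went from 2.18 ± 0.260 to 1.47 ± 0.203 FPKM. Its responses differed by -0.52 between the lines, a call lost after rescaling to TPM.

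Class I genes were expressed in both lines. B2M, the light chain of class I, was at 314 ± 21.3 FPKM in SU-DHL-8 control, against 339 ± 19.4 in Farage control. NLRC5, the class I relative of CIITA, was at 9.76 ± 0.849 and 11.2 ± 0.589 FPKM, a log2 difference of 0.18 ± 0.0619 that was lost with the median of ratios. Of 18 tested class I genes, 10 rose and 3 fell in SU-DHL-8 and 7 rose and 7 fell in Farage. Of 13 genes of the interferon gamma list, 8 rose and 2 fell in SU-DHL-8, and 4 rose and 7 fell in Farage. Of 13 genes of T cell contact, 5 rose and 2 fell in SU-DHL-8, and 10 rose and none fell in Farage. In Farage control 12 were higher, among them CD86 at 20.7 ± 1.87 FPKM against 0.192 ± 0.0338. CD86, TNFSF4, PDCD1LG2 and IRF9 passed the filter only through Farage. GBP2 passed it only through SU-DHL-8 morusinol and ICOSLG only through SU-DHL-8 control, so their calls in that line were favoured by the filter. CXCL10 reached 1 FPKM in all libraries of a group only in SU-DHL-8 morusinol, so its call there was favoured as well. Over all genes tested, 25.1% rose and 21.6% fell in SU-DHL-8, 21.9% and 21.2% in Farage, and 34.5% were higher in Farage control.

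Genes with a pattern most like these were sought among 7140 genes with a mean of at least 5 FPKM, by Pearson's r over the 12 libraries. The libraries form 4 groups in 2 lines, so a high r describes the group means and has no p here. RNF44 (r = 0.967), ALDH5A1 (0.956), ZNF106 (0.949), SLTM (0.948) and UBE2J1 (0.940) were closest to CIITA. UBE2J1, a ubiquitin-conjugating enzyme of the endoplasmic reticulum, was at 67.6 and 169 FPKM in SU-DHL-8 and at 116 and 103 in Farage. CD38 (r = 0.995), DPYD, TBCC, TUG1 and BLCAP (each 0.989) were closest to the mean z-score of the 10 genes. CD38, a surface enzyme of activated B cells and plasma cells, went from 33.6 ± 1.64 to 69.8 ± 0.645 FPKM in SU-DHL-8 and from 8.62 ± 0.400 to 4.08 ± 0.457 in Farage.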

How the data were processed

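RNA from 12 libraries (3 in each of 4 groups) was made into libraries with a SMARTER mRNA-seq kit, per the labels' protocols. The authors deposited 1 table of FPKM with 1 column per library. The aligner, the counting program and whether strand was used were not given in the sources used here. Per the submitters' processing notes only mouse builds (GRCm38, mm10) were named, but all 61466 identifiers are human, and 58297 of them (94.8%) match GENCODE 29, from which positions were taken. Columns marked n were taken as control, because every other label was already matched. No library pair held identical values.

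The FPKM values were used as deposited. Genes at 1 FPKM or more in at least 3 libraries (17574) were fitted as log2(FPKM + 1) with limma 3.58.1 in R 4.3.3, with 1 mean per group over all 12 libraries and an intensity trend with a robust prior. Tests were two-sided and p-values were adjusted by Benjamini-Hochberg over all 17574 genes, with calls under 0.05. A fold change on this scale understates the change of low genes. Depth was estimated from the steps of FPKM times exon length: 50.9% to 53.0% of values under 50 fragments were whole within 0.02 fragments, so estimated fragments are approximate, and no counting intervals are given. On simulated data for the SU-DHL-8 response (17574 genes), 99% of 100 genes changed by 1 on the log2 scale and 87% of 100 changed by 0.5 were recovered, and 5.58% of calls were false. The changed genes were drawn only from those above 3 on that scale in SU-DHL-8 control, which leaves out CIITA, HLA-DMB, HLA-DQA1 and HLA-DQB1. Far fewer genes changed in the simulation than the 8216 called in the data, so these rates need not hold for the data.

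The 10 genes, the other lists and the tests were chosen with earlier results of these data known. All 10 genes are named. Members of the lists could be named, though most are given only in counts, and so could the 5 genes most like CIITA and the 5 most like the mean of the set. Promoters came from RefSeq, and Python 3.11.15 (matplotlib 3.10.9, pandas 2.3.3, numpy 2.4.6) drew the plots. Alternatives were another pseudocount, no filter, TPM and median-of-ratios scaling, a replicate block, no trend, fits of the compared groups only, summed rows of one name, and each library left out.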

Additional observations from a re-analysis of the deposited data

Results flagged for a closer look

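The response to morusinol differed between the lines by the interaction term of limma (Farage minus SU-DHL-8, log2 scale) for 9 of the 10 genes, where 34.9% of all genes tested differed. After rescaling to TPM it was 6 of the 10, without HLA-DPA1, HLA-DRB1 and HLA-DQA1. The difference was -0.99 for HLA-DMA, -0.85 for CIITA, -0.73 for HLA-DMB, -0.70 for CD74, -0.59 for HLA-DPB1, -0.51 for HLA-DQA1, -0.33 for HLA-DPA1 and -0.23 for HLA-DRB1. It was 0.70 for HLA-DRA. Of these genes, HLA-DRA, HLA-DRB1, HLA-DPB1 and HLA-DQA1 passed the filter only through SU-DHL-8. HLA-DRB1, HLA-DPB1 and HLA-DQA1 were near 0 in Farage and can show little change there on this scale, so the count of 9 says little about them. HLA-DMA, HLA-DMB and CD74 were called higher in SU-DHL-8 and lower in Farage. HLA-DRA was called in Farage only, where its FPKM rests on an estimated 4.12 to 14.4 fragments per library.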

How the results depend on the processing

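Of 650 alternative values for single genes, 602 kept their direction and their side of the threshold, among them all 150 for the control libraries of the lines. The exceptions were mostly the difference of the responses, with 30 calls lost and 4 directions turned, and the SU-DHL-8 response, with 9 calls lost. Rescaled to TPM, 3 genes rose in SU-DHL-8 in place of 7 and 5 were lower in the difference in place of 8. With only the compared groups fitted, 1 gene, HLA-DPA1, fell in SU-DHL-8 in place of 0. The HLA-DQB1 difference turned from -0.03 to 0.24 at a pseudocount of 0.1, to 0.10 with TPM and to 0.018 with the median of ratios. With each library left out in turn, HLA-DRA in SU-DHL-8 ranged from -0.058 to 0.0073 (turned without control replicate 2), HLA-DPB1 in Farage from -0.093 to 0.013 (control replicate 2) and HLA-DRB1 in Farage from -0.059 to 0.043 (morusinol replicate 2). None of these turned values was called. The cause was not tested. Leaving out each library gave 7 genes higher in SU-DHL-8 in all fits, 4 to 5 lower in Farage and 6 to 8 lower in the difference. Rescaling to TPM moved the median of all genes between the controls from 0.08 to 0.19, well under the differences of the classical chains.

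Same-numbered control and treated libraries did not deviate together (r from -0.0788 to 0.0331 across genes), so no pairing was visible in the values. That does not show whether these libraries were handled as pairs. With the replicate block the counts of the 10 genes were the same, 7 higher in SU-DHL-8 and 1 higher and 4 lower in Farage, and over all genes 4239 rose and 3696 fell in SU-DHL-8. With the replicate block and the median of ratios together, 5 genes rose in SU-DHL-8, 6 were lower in the difference, and the HLA-DQB1 difference was 0.018.

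Depth limits the DR and DQ chains in Farage, which rest on a few fragments per library, and no source used here gives the dose, the strand of counting or the handling of HLA alleles.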
